A study of Mus musculus with 37 samples.

Results

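The genes that carry dietary lipid through the enterocyte were followed in mouse jejunal organoids treated with vasoactive intestinal peptide (VIP) and, in one experiment, irradiated. The set comprised 9 genes, the apolipoproteins Apoa1, Apoa2, Apoa4, Apob and Apoc3, the microsomal triglyceride transfer protein Mttp, the fatty acid binding proteins Fabp1 and Fabp2, and the lipoprotein receptor Scarb1, out of 31533 genes in the 3 count tables together. They were found by gene symbol, and all 9 were present in each table. The set itself was chosen by lipid function, with measured values of these data in view. The values selected on were those of VIP-treated against untreated whole organoids, in which the lower level of Apoa2 was known, so that comparison is given below as a description with no test. The other comparisons used other mice.

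RNA was sequenced from 3 experiments. All organoids were grown from the jejunum of adult mice. Whole organoids came from C57Bl/6 mice and were left untreated (3 cultures) or treated with 100 nM VIP for 72 h (4 cultures, that of mouse 4 having no untreated partner here). Organoids of Lgr5-EGFP-IRES-CreERT2 mice, in which the Lgr5 locus drives the green reporter EGFP, were treated in the same way, and live Lgr5-EGFP+ cells were sorted from 4 untreated and 4 VIP-treated cultures. In the irradiation experiment, Lgr5-EGFP+ cells were sorted from organoids of 4 further mice in 4 states each, untreated or given 100 nM VIP, with no irradiation or after 6 Gy of X-rays, VIP being given for 48 h after irradiation, while its duration in the cultures without irradiation is not given in the sources used here. All sorted groups thus share the reporter allele and the gate on EGFP, and every culture was grown from 1 mouse. Mouse numbers are those within an experiment.

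Dietary fat reaches the enterocyte as fatty acids, monoglycerides and sterols, which are bound in the cytosol by fatty acid binding proteins and rebuilt into triglyceride. MTTP loads this triglyceride onto apolipoprotein B in the endoplasmic reticulum, and the resulting chylomicron leaves the cell with apolipoproteins A-I, A-IV and C-III on its surface. These genes are typical of mature villus enterocytes and are transcribed at low levels in crypt stem cells, which the Lgr5 reporter marks.

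Apoa1, Apoc3 and Apoa4 lie next to each other on chromosome 9 in the mouse genome GRCm38, at chr9:46228580-46230466, chr9:46232933-46235636 (minus strand) and chr9:46240696-46243459, with Apoa5 completing a cluster of 4 genes over 43340 bases. The remaining genes are dispersed, with Fabp1 at chr6:71199827-71205023, Fabp2 at chr3:122895072-122899506, Mttp at chr3:138089854-138144968 (minus strand), Apob at chr12:7977648-8016835, Apoa2 at chr1:171225054-171226379 and Scarb1 at chr5:125277087-125341094 (minus strand). Promoters of 7 of the 9 genes were present in a RefSeq table for GRCm38.p6 (none for Apoc3 and Scarb1). The stretches upstream of Fabp1, Fabp2, Apoa1 and Apoa2 are shown because the first 3 passed a test in the irradiation experiment and the last is the gene on which the choice of the set turned. They are given 5′ to 3′ on the plus strand, up to the base before the annotated gene, at chr6:71199629-71199826, chr3:122894822-122895071, chr9:46228380-46228579 and chr1:171224804-171225053, with capitals marking matches to the motifs named after them.

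Fabp1: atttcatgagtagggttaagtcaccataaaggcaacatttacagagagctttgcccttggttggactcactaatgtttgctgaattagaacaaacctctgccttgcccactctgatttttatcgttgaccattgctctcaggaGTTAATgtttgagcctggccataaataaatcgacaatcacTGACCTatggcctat
Fabp2: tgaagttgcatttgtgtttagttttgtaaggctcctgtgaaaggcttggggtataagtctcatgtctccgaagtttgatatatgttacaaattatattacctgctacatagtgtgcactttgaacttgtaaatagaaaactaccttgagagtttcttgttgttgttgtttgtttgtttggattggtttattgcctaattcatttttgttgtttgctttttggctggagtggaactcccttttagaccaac
Apoa1: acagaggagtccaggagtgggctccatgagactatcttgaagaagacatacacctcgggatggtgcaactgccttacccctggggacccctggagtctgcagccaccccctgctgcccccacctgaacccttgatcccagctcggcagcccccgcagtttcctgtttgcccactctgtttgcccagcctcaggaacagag
Apoa2: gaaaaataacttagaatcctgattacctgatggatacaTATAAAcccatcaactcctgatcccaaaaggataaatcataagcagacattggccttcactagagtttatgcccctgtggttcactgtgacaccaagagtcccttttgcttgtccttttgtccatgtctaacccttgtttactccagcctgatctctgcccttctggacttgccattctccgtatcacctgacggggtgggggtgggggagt

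The motifs searched in the 250 bases before each RefSeq start site, on both strands, were the TATA box TATAAA, the HNF4 site CAAAGTCCA, the nuclear receptor half-site AGGTCA, the HNF1 half-site GTTAAT and the cAMP response element TGACGTCA. None of these overlapped another in the sequences shown. GTTAAT was found in Fabp1 alone of the 7 genes, and in 6.43% of all 32851 promoters in the table. AGGTCA, which reads TGACCT on the other strand, was found in Fabp1 and at a second RefSeq start site listed for Apoa2, and in 14.0% of all promoters. That second site lies at chr1:171221564, upstream of the annotated gene, and bases after it matched no annotated transcript of Apoa2. TATAAA was found in Apoa2, Apob and Fabp1, in Fabp1 beyond the stretch shown, and in 12.4% of all promoters. It lay at bases -212 to -207 from the start site in Apoa2, -60 to -55 in Apob and -30 to -25 in Fabp1. CAAAGTCCA (0.384% of all promoters) and TGACGTCA (1.55%) were found in none of the 7. These matches describe letters and were not tested as binding sites.

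The method counts unique molecular identifiers (UMIs) at the 3′ ends of transcripts, so a level is a count of molecules and does not depend on transcript length. Whole organoids held 3722716 to 6330404 UMIs per culture, sorted cells of the first experiment 575242 to 1104126 and those of the irradiation experiment 1075715 to 1876729. Levels are counts-per-million values (CPM) of UMIs, scaled by the TMM method within each table, and levels of different tables were scaled separately and not tested against each other. One library stood apart. In whole organoids, library 2 of the VIP-treated culture of mouse 3 held 51.9 CPM of the goblet cell gene Clca1, against 346.8 CPM in library 1 of that culture and 40.2 to 59.1 CPM in the untreated libraries. Log2 fold changes in whole organoids are therefore given with and without it.

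The sorted cells were poor in enterocyte transcripts but not higher in Lgr5 itself. Alpi, the brush border alkaline phosphatase of mature enterocytes, was measured at 112 to 466 CPM in whole organoids and at 0 to 23.4 CPM in sorted cells. The sum of 16 enterocyte markers was 5781 to 7080.0 CPM in whole organoids and 604 to 2075 CPM in sorted cells, and the sum of 10 stem cell markers was 2123 to 4736 CPM and 2616 to 7097 CPM. Lgr5 was measured at 44.5 to 114.7 CPM in whole organoids and at 12.6 to 53.5 CPM in sorted cells. The sorted cells also held Lyz1, the Paneth cell lysozyme, at 427 to 2942 CPM, so transcripts of other lineages were present behind the gate. Of 9 hepatocyte markers, which would mark another source of apolipoprotein transcripts, albumin (Alb) was at 0 to 2.71 CPM in all samples. Of the 9, 6 were present in the table of whole organoids, 5 in that of the 72 h sorted cells and 9 in that of the irradiation experiment. The sum of those present was 28.2 to 61.7 CPM in whole organoids and 66.9 to 159 CPM in sorted cells. Most of it was Ttr, the transthyretin gene, at 24.3 to 56.3 CPM and 58.6 to 155 CPM. The part of such transcripts in the levels below was not tested. In bulk RNA, fewer cells of a type and less RNA per cell cannot be told apart, and this holds for every difference below.

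Apoa1, Apoa4, Apoc3, Mttp, Fabp1 and Fabp2 were measured at lower levels in each sorted sample than in each whole organoid sample. The share of all genes that separate in this way was not counted, so nothing particular to the set is read from it. Fabp1 spanned 5122 to 8525 CPM in whole organoids and 46.5 to 585 CPM in sorted cells. Apoa1 spanned 1460.2 to 3165 CPM and 59.8 to 1078 CPM, Apoa4 696 to 1303 CPM and 22.0 to 259 CPM. Fabp2 had the highest level of the set in every sorted sample but the irradiated untreated one of mouse 4, where Apoa1 exceeded it. It was measured at 425 to 969 CPM in sorted cells, beneath its 1132 to 2292 CPM in whole organoids. The remaining 3 genes overlapped. Scarb1 spanned 16.0 to 33.2 CPM in whole organoids and 13.3 to 51.4 CPM in sorted cells, Apob 84.5 to 289 CPM and 10.6 to 104 CPM, with 1 sorted sample inside the whole organoid range, and Apoa2 was scarce throughout, at 3.30 to 27.0 CPM and 0 to 6.71 CPM.

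**Figure D1:**
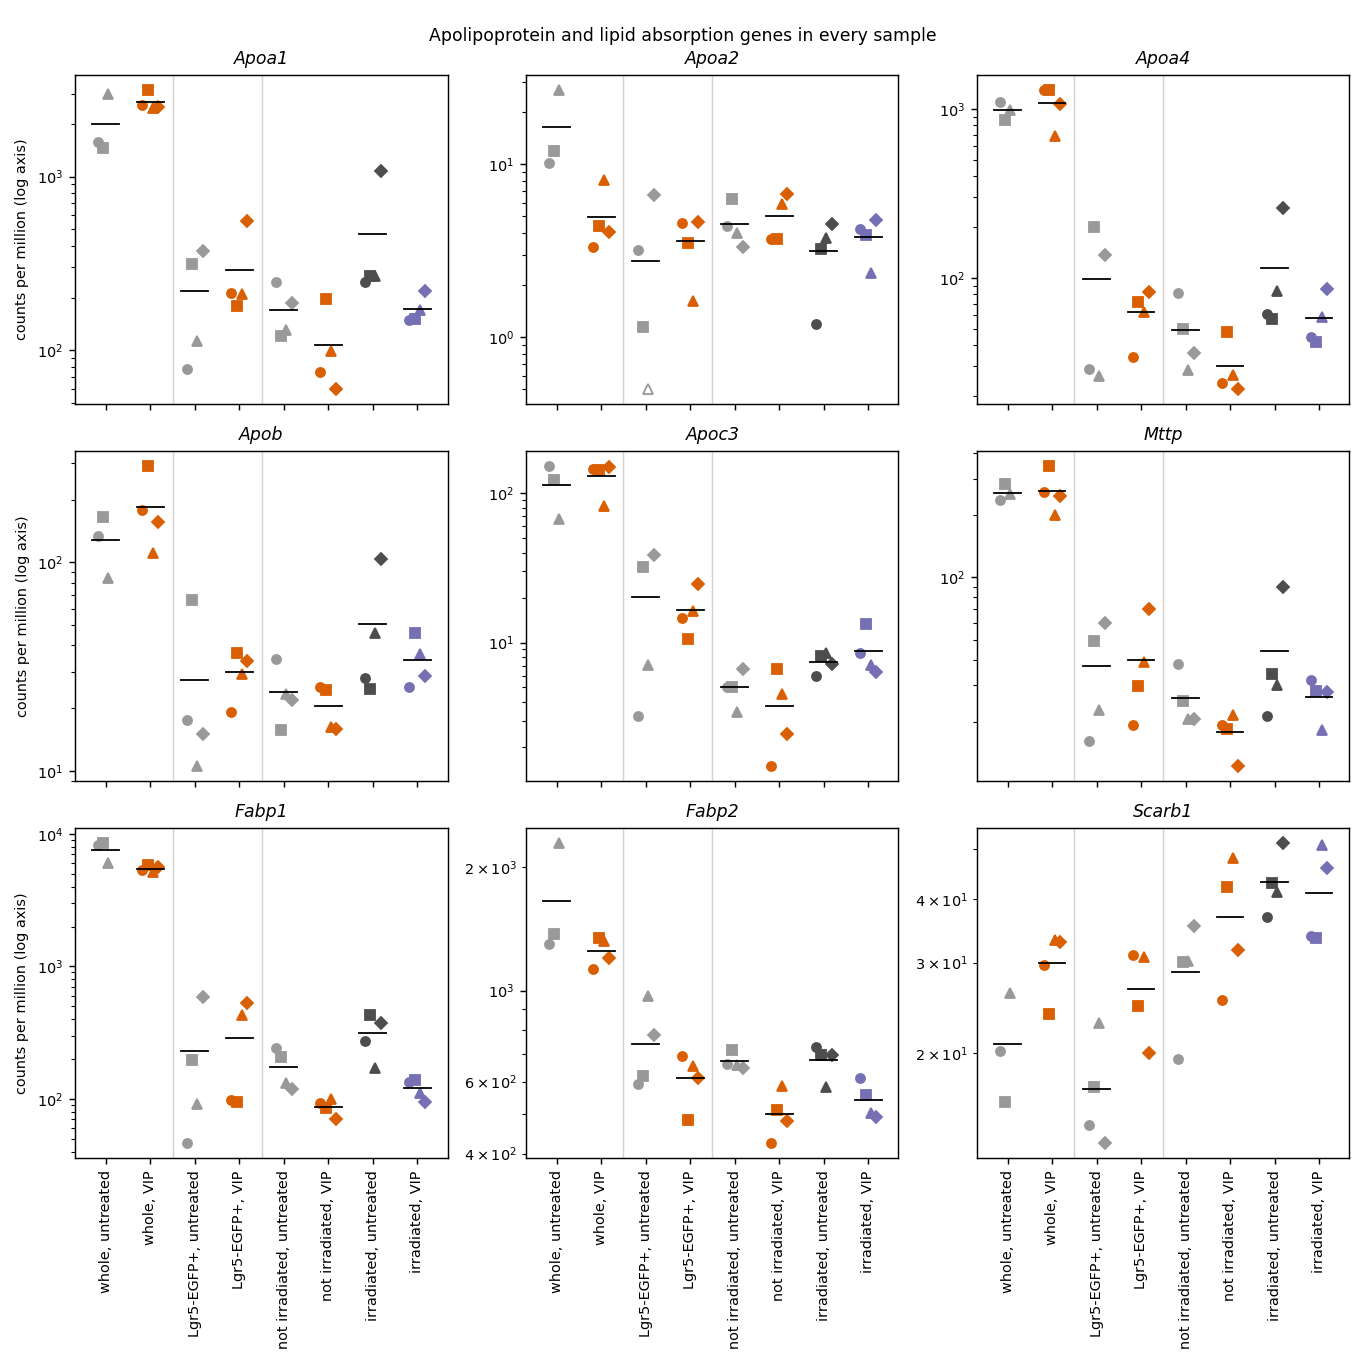
Level of each gene in every sample, in CPM on a log axis, for the 8 groups. Points are samples, with a shape for each mouse number (circle 1, square 2, triangle 3, diamond 4), and bars are group means. The open point of Apoa2 is a count of 0 drawn at 0.5. Fabp1 spans 5122 to 8525 in whole organoids and lies at 585 or less in sorted cells, while Scarb1 overlaps between them.

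Without irradiation, VIP lowered both fatty acid binding proteins in the sorted cells of the irradiation experiment, and in irradiated cells it lowered Fabp1. Irradiation of untreated cells raised Fabp1, Apoa1 and Scarb1. With irradiation of VIP-treated cells, Apoc3 passed, higher. Its protein binds triglyceride-rich lipoproteins and restrains their clearance. The call of Apoc3 is 1 of 8 where 7.78% of all genes passed, so nothing about the set is read from it. It rests on 57 counts in the irradiated and 22 in the other VIP-treated samples. Of these 7 calls, only that of Fabp1 with VIP in irradiated cells held with each mouse left out in turn. These comparisons are not independent, since VIP in cells without irradiation shares its untreated samples with the irradiation of untreated cells, which in turn shares its irradiated samples with VIP in irradiated cells. Calls rest on edgeR's quasi-likelihood test with the mouse as a block and a Benjamini-Hochberg adjusted p of at most 0.05 over all genes tested. Of the 9 genes, 8 had enough counts for the test in both tables of sorted cells. Apoa2 was not tested there, with 18 counts over 8 samples and 102 counts over 16 samples.

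With VIP in cells without irradiation, 2 of 8 tested genes passed the threshold, both lower, while 0.742% of 9976 genes tested passed. The median log2 fold change was -0.48 over the 8 genes and -0.0033 over all genes. With VIP in irradiated cells, 1 of 8 passed, lower, against 0.221% of all genes, with medians of -0.56 and -0.0019. With irradiation of untreated cells, 3 of 8 passed, all higher, against 4.46% of all genes, with medians of 0.77 and -0.0041. With irradiation of VIP-treated cells, 1 of 8 passed, higher, against 7.78% of all genes, with medians of 0.62 and 0.0015. These medians describe the 8 genes that passed the filter on low counts and are not a test of the set.

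**Figure D2:**
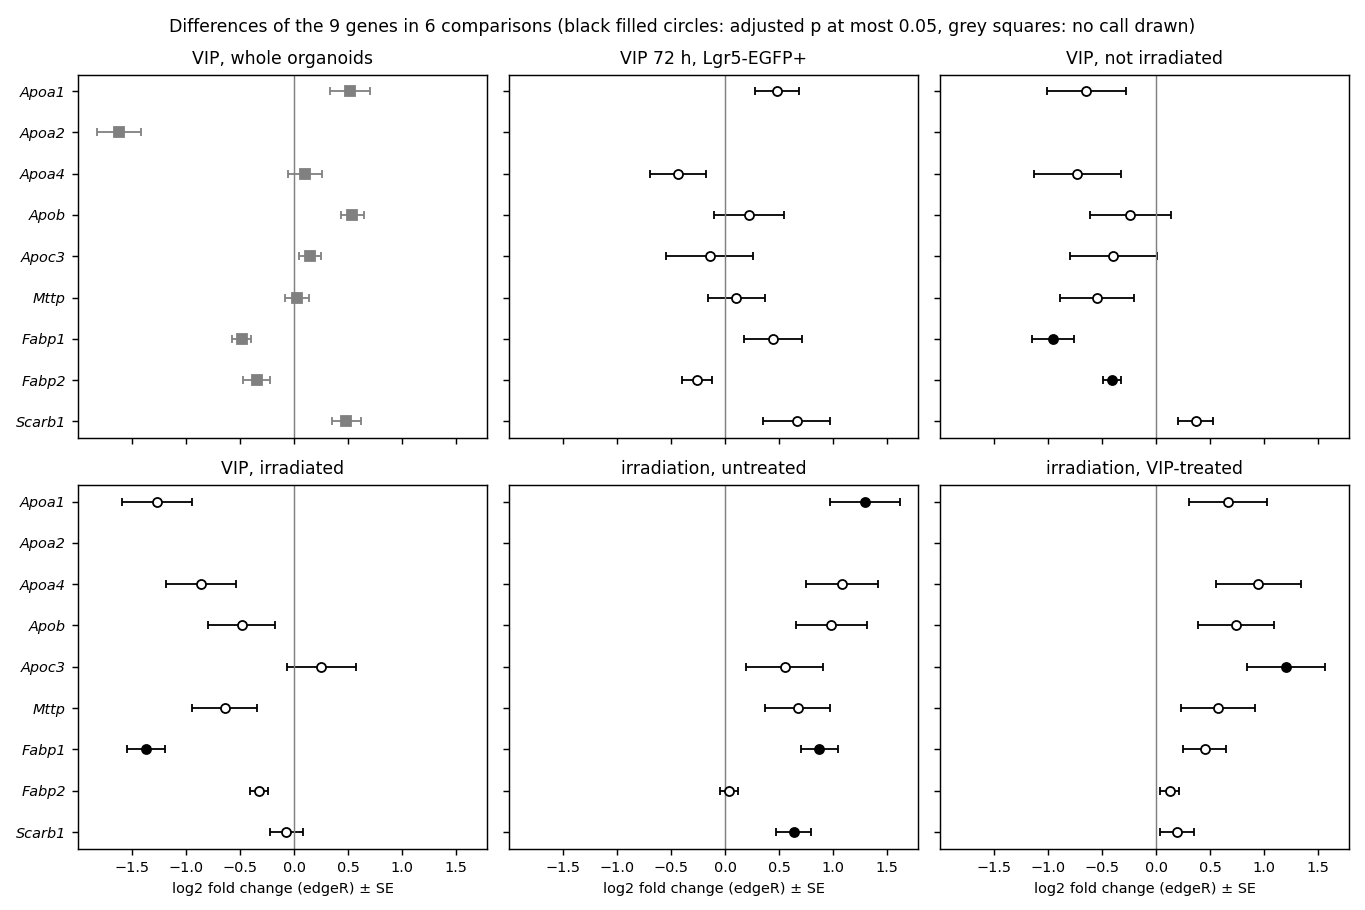
Log2 fold change with its standard error (edgeR) of each gene in 6 comparisons. Filled black circles passed an adjusted p of 0.05, open circles did not, and grey squares show the whole organoid comparison, in which no call is drawn. Apoa2 appears in whole organoids only. Fabp1 lies at -0.95 and -1.37 with VIP in the irradiation experiment and at 0.87 with irradiation of untreated cells.

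Fabp1, the liver-type fatty acid binding protein that also serves the proximal small intestine, was lower with VIP in both states of the irradiation experiment. Its levels without irradiation were 244, 208, 131 and 118 CPM in the untreated cells of mice 1 to 4 and 93.0, 85.7, 100.2 and 70.8 CPM in the VIP-treated cells. Every treated value lay under every untreated value. The log2 fold change was -0.95 (SE 0.19, edgeR adjusted p = 0.013), or 0.517-fold, and Fabp1 was lower in 4 of 4 mice. The call was lost without mouse 1 (-0.79, adjusted p = 0.11) or mouse 2 (-0.86, adjusted p = 0.11), and without the mouse block (-0.99, adjusted p = 0.055).

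After 6 Gy, Fabp1 was measured at 272, 429, 171 and 377 CPM in the untreated cells and at 134, 139, 111 and 94.5 CPM in the VIP-treated cells. These groups did not overlap either. The log2 fold change was -1.37 (SE 0.18, edgeR adjusted p = 0.00041), or 0.386-fold, with 4 of 4 mice lower. It passed the threshold in all 11 alternatives run, including each mouse left out in turn, with log2 fold changes from -1.56 to -1.15. The difference between the VIP effect with and without irradiation was -0.42 (SE 0.26), an interaction that did not pass (edgeR adjusted p = 0.88, 95% interval -0.96 to 0.12).

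Irradiation of untreated cells raised Fabp1 in 4 of 4 mice, with a log2 fold change of 0.87 (SE 0.17, edgeR adjusted p = 0.0023). Each irradiated value lay above the value of the same mouse without irradiation, although the groups overlapped. Without mouse 4 the estimate was 0.60 and no longer passed (adjusted p = 0.064). In VIP-treated cells, irradiation was accompanied by a smaller difference of 0.45 (SE 0.20, adjusted p = 0.19), higher in 4 of 4 mice. By group mean, the order of Fabp1 was irradiated untreated (312 CPM, SD 115), untreated without irradiation (175, SD 60.5), irradiated with VIP (119.7, SD 20.8) and VIP without irradiation (87.4, SD 12.6), in which the samples of each group overlapped those of the next.

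The sorted cells given VIP for 72 h gave another picture of Fabp1. Its levels were 46.5, 198, 91.6 and 585 CPM in the untreated cells and 98.0, 95.1, 429.8 and 527 CPM in the VIP-treated cells. Fabp1 was higher with VIP in mice 1 and 3 and lower in mice 2 and 4, so the mice disagreed in direction. The log2 fold change was 0.44 (SE 0.27, edgeR adjusted p = 0.91, 95% interval -0.10 to 0.98), and without mouse 3 it was -0.15. In whole organoids Fabp1 was measured at 8207, 8525 and 6079 CPM untreated and at 5307, 5779.5, 5122 and 5634 CPM with VIP, a log2 fold change of -0.49 (SE 0.09) given here as a description. It was -0.72 without the second library of VIP-treated mouse 3 and -0.27 without the first.

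Fabp2, the intestinal fatty acid binding protein, was lower with VIP in cells without irradiation. Without irradiation, its levels were 663, 716, 660.2 and 648 CPM in untreated cells and 425, 510.0, 585 and 479 CPM with VIP. The groups did not overlap. VIP lowered Fabp2 with a log2 fold change of -0.41 (SE 0.08, edgeR adjusted p = 0.014), or 0.752-fold, in 4 of 4 mice. Leaving out mouse 1 (-0.35, adjusted p = 0.063), mouse 2 (-0.39, adjusted p = 0.11) or mouse 4 (-0.40, adjusted p = 0.12) ended the call.

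In irradiated cells, Fabp2 was measured at 727, 697, 582 and 698 CPM untreated and at 612, 557, 504 and 490.4 CPM with VIP. It was lower in 4 of 4 mice, with a log2 fold change of -0.33 (SE 0.08) that did not pass (edgeR adjusted p = 0.14). A fit on the irradiated samples alone gave -0.32 with an adjusted p of 0.028. The irradiation differences of Fabp2 were 0.04 (SE 0.08) in untreated and 0.12 (SE 0.08) in VIP-treated cells on the log2 scale, neither past the threshold, with 95% intervals of -0.13 to 0.21 and -0.05 to 0.30. The mean levels fell into a pair with no VIP (676 and 672 CPM) and a pair with VIP (541 and 499.8 CPM). The middle groups of this order (672 and 541 CPM) did not overlap, but the irradiated untreated group overlapped both VIP groups. Its value of 582 CPM in mouse 3 lay under 612 CPM (mouse 1, irradiated with VIP) and 585 CPM (mouse 3, VIP without irradiation).

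Fabp2 was measured after 72 h at 592, 620.3, 969 and 781 CPM untreated and at 692, 483, 655 and 613 CPM with VIP. It was lower with VIP in 3 of 4 mice, and the log2 fold change of -0.26 (SE 0.14) did not pass (edgeR adjusted p = 0.88). In whole organoids it was at 1297, 1376 and 2292 CPM untreated and at 1132, 1347, 1324 and 1202 CPM with VIP, lower in 3 of 3 mice, with a log2 fold change of -0.35 (SE 0.12) that was -0.11 without mouse 3 and -0.36 without the second library of VIP-treated mouse 3.

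**Figure D3:**
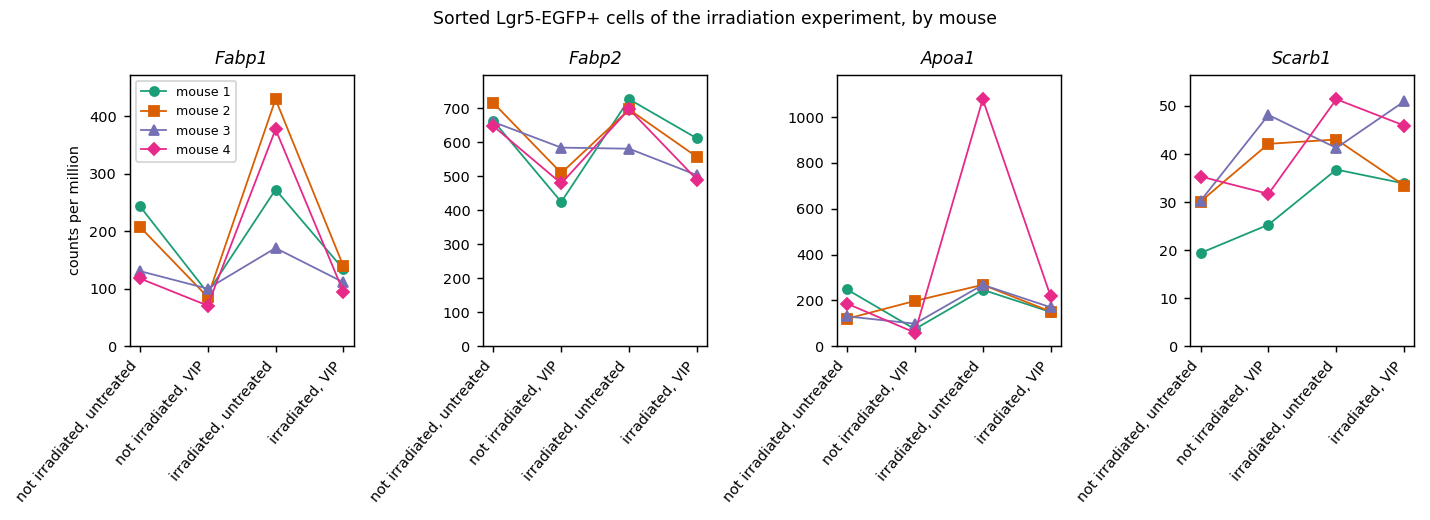
Level of Fabp1, Fabp2, Apoa1 and Scarb1 in CPM in the sorted cells of the irradiation experiment, with 1 line for each of 4 mice over the 4 states. Fabp1 and Fabp2 lie lower with VIP than without it in every mouse at both irradiation states, and Apoa1 of the irradiated untreated cells of mouse 4 stands at 1078 against 247 to 268 in the other mice.

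Apoa1 and Apoa4 encode the exchangeable surface apolipoproteins of the chylomicron, apolipoprotein A-I being also the main protein of high density lipoprotein. In the irradiation experiment Apoa1 was measured at 248, 121, 131 and 187 CPM in untreated cells without irradiation and at 247, 268, 268 and 1078 CPM after 6 Gy. Irradiation raised Apoa1 by 1.29 on the log2 scale (SE 0.33, edgeR adjusted p = 0.019), or 2.45-fold, in 3 of 4 mice, with a difference of -0.01 in mouse 1. The size rested on mouse 4, without which the log2 fold change was 0.67 (adjusted p = 0.17), and the call was also lost without mouse 3 (1.35, adjusted p = 0.11) and in DESeq2's Wald test (adjusted p = 0.25).

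The irradiated untreated sample of mouse 4 was also the highest of its group in the enterocyte marker sum, at 2075 CPM against 1282 to 1500 CPM in the other 3 mice. In the same sample Apoa4 was measured at 259 CPM, Apob at 104 CPM and Mttp at 90.2 CPM, against at most 83.5, 46.0 and 33.9 CPM in the other mice. The part of enterocyte content in these differences was not tested.

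With VIP in irradiated cells, Apoa1 was measured at 149.8, 152, 170.4 and 219 CPM. Each of these lay under each value of the irradiated untreated cells, and the log2 fold change was -1.27 (SE 0.32), or 0.414-fold, in 4 of 4 mice, but it did not pass (edgeR adjusted p = 0.13). It passed on the irradiated samples alone (-1.20, adjusted p = 0.0078) and without mouse 2 (-1.41, adjusted p = 0.049), and it was -0.72 without mouse 4. Without irradiation, the VIP-treated cells held 75.2, 198, 98.9 and 59.8 CPM, lower than the untreated cells in 3 of 4 mice, at -0.65 on the log2 scale (SE 0.37, adjusted p = 0.50).

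After 72 h of VIP in the other sorted cells, Apoa1 was measured at 215, 179.6, 211 and 554 CPM against 78.7, 316, 113 and 373 CPM untreated, higher in 3 of 4 mice. The log2 fold change was 0.48 (SE 0.20, edgeR adjusted p = 0.88), with an adjusted p of 0.0059 and a value of 0.93 without mouse 2. In that comparison 0 of 8 tested genes passed, against 0.0885% of 6778 genes (6 genes in edgeR and 2 in DESeq2, which called 0 of the 8 as well). At an unadjusted p under 0.05 were 2 of the 8, Apoa1 and Scarb1, and 373 of all genes. The medians of the log2 fold changes were 0.16 for the 8 genes and -0.0015 for all genes.

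In whole organoids, Apoa1 was measured at 1576, 1460.2 and 2981 CPM untreated and at 2583, 3165, 2479 and 2509 CPM with VIP. The untreated culture of mouse 3 lay within the treated range, and the log2 fold change was 0.52 (SE 0.19), with 2 of 3 mice higher. It was 0.62 without the second library of VIP-treated mouse 3 and 0.31 without the first, 0.92 with mouse 3 left out and 0.21 with mouse 2 left out.

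Apoa4 followed Apoa1 in direction in the irradiation experiment without passing a threshold. Its levels were 81.4, 50.2, 28.6 and 36.0 CPM without irradiation or VIP and 61.1, 57.6, 83.5 and 259 CPM after 6 Gy, a log2 fold change of 1.08 (SE 0.33, edgeR adjusted p = 0.067) that was 0.34 without mouse 4. With VIP it was measured at 23.8, 48.04, 26.7 and 22.0 CPM without irradiation and at 44.5, 42.0, 58.6 and 85.5 CPM after it. VIP-treated cells were lower in 4 of 4 mice in both states, with log2 fold changes of -0.73 (SE 0.40, adjusted p = 0.49) and -0.86 (SE 0.32, adjusted p = 0.62). Over the 16 samples of that experiment, after each mouse's mean was subtracted, the Pearson correlation of Apoa4 with Apoa1 was 0.94, the highest among the 9 genes, a description of samples that share mice and treatments. In the 72 h experiment, 28.9, 201, 26.4 and 137 CPM untreated stood against 33.9, 72.2, 63.2 and 82.9 CPM with VIP, and in whole organoids 1106, 862 and 991 CPM against 1303, 1294, 696 and 1072 CPM, a log2 fold change of 0.10 (SE 0.15) that was 0.011 without the second library of VIP-treated mouse 3.

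Apoc3 was rare in sorted cells, at 153 counts over the 16 samples of the irradiation experiment. It was measured at 1.49, 6.65, 4.55 and 2.44 CPM with VIP alone and at 8.47, 13.2, 7.03 and 6.33 CPM with VIP after 6 Gy. Irradiation raised it in VIP-treated cells in 4 of 4 mice, by 1.20 on the log2 scale (SE 0.36, edgeR adjusted p = 0.040). The call was lost when any 1 mouse was left out, with adjusted p-values of 0.16, 0.098, 0.066 and 0.13 without mice 1 to 4, and without the mouse block (adjusted p = 0.055). In untreated cells the difference was 0.55 (SE 0.36, adjusted p = 0.48), from 5.01, 5.02, 3.43 and 6.67 CPM to 5.93, 8.07, 8.44 and 7.21 CPM. VIP itself gave log2 fold changes of -0.40 (SE 0.40) without and 0.25 (SE 0.32) with irradiation (adjusted p = 0.77 and 0.97). After 72 h the untreated cells held 3.21, 32.0, 7.05 and 38.3 CPM and the VIP-treated cells 14.6, 10.6, 16.2 and 24.6 CPM, with no common direction. In whole organoids 151, 123 and 66.8 CPM untreated stood against 146, 144, 82.4 and 149 CPM with VIP, a log2 fold change of 0.14 (SE 0.10) that was -0.045 without the second library of VIP-treated mouse 3.

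Apob, the structural protein of the chylomicron, and Mttp, which lipidates it, did not pass in any comparison of sorted cells. With irradiation of untreated cells, Apob went from 34.5, 15.7, 23.4 and 22.0 CPM to 27.9, 24.7, 46.0 and 104 CPM, a log2 fold change of 0.98 (SE 0.33, edgeR adjusted p = 0.094) that was 0.39 without mouse 4. In VIP-treated cells it was measured at 25.3, 24.4, 16.3 and 15.9 CPM without irradiation and at 25.4, 45.9, 36.3 and 28.5 CPM after it. Those groups did not overlap, yet the difference of 0.74 (SE 0.35) did not pass (adjusted p = 0.22). VIP gave Apob log2 fold changes of -0.24 (SE 0.37) without irradiation and -0.49 (SE 0.31) with it, the latter turning to 0.16 without mouse 4.

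Mttp was measured at 38.2, 25.1, 20.6 and 20.7 CPM in untreated cells without irradiation, at 19.4, 18.5, 21.5 and 12.2 CPM with VIP, at 21.4, 33.9, 30.0 and 90.2 CPM after 6 Gy and at 31.8, 28.0, 18.2 and 28.0 CPM after 6 Gy with VIP. All 4 groups overlapped, and the VIP differences of -0.55 (SE 0.34) and -0.64 (SE 0.30) and the irradiation difference of 0.67 (SE 0.30) did not pass (edgeR adjusted p = 0.58, 0.82 and 0.25). In whole organoids Mttp was at 236, 283 and 252 CPM untreated and at 259, 345, 199.9 and 246 CPM with VIP, a log2 fold change of 0.03 (SE 0.11) that was -0.0087 without the second library of VIP-treated mouse 3. Apob was at 133, 166 and 84.5 CPM and at 178, 289, 111 and 157 CPM, higher with VIP in 3 of 3 mice with a log2 fold change of 0.54 (SE 0.10), 0.40 without mouse 2 and 0.48 without that library. After 72 h in sorted cells, Apob was at 17.7, 66.4, 10.6 and 15.0 CPM untreated and at 19.2, 37.0, 29.2 and 33.8 CPM with VIP. Mttp was at 16.1, 49.2, 22.9 and 60.0 CPM and at 19.2, 29.9, 38.9 and 70.6 CPM. Both were higher in 3 of 4 mice, with log2 fold changes of 0.22 (SE 0.32) and 0.10 (SE 0.26) that did not pass (edgeR adjusted p = 0.97 and 0.98).

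Apoa2, a structural protein of high density lipoprotein made mainly by the liver, was scarce in whole organoids. It was measured at 10.1, 11.9 and 27.0 CPM untreated and at 3.30, 4.42, 8.06 and 4.07 CPM with VIP, from 335 counts in all. All treated cultures lay under all untreated ones. The log2 fold change was -1.62 (SE 0.20), with within-mouse differences of -1.52, -1.36 and -1.70, and it stayed between -1.72 (without the second library of VIP-treated mouse 3) and -1.47 (without the first) over the alternatives. Since this difference led to the choice of the set, it is a description and supports nothing further. In the sorted cells Apoa2 was listed at 0 to 6.66 CPM untreated and 1.62 to 4.61 CPM with VIP in the 72 h experiment, where 1 library with no count allows a level of up to 4.93 CPM (3 counts, counting error only). It ranged from 1.19 to 6.71 CPM in the irradiation experiment, and it was not tested in either experiment.

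As a plain count over whole organoids, and not as a test of the set, 3 of 9 genes lay past the threshold used elsewhere, Apob higher and Apoa2 and Fabp1 lower, where 4.82% of 12727 genes did. Nothing is read from this count because the set was chosen with that comparison in view. It became 5 without the second library of VIP-treated mouse 3, 0 without the first and 0 without the mouse block. No untreated culture of mouse 4 was analysed here, so that mouse adds nothing to these fold changes. Ttr of the hepatocyte list was lower with VIP there too, at -0.56 (SE 0.12), while Alb of that list was at 0 to 0.87 CPM. The part of hepatocyte transcripts in the values of Apoa2 was not tested. The median log2 fold change was 0.10 over the 9 genes and -0.0041 over all genes.

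**Figure D4:**
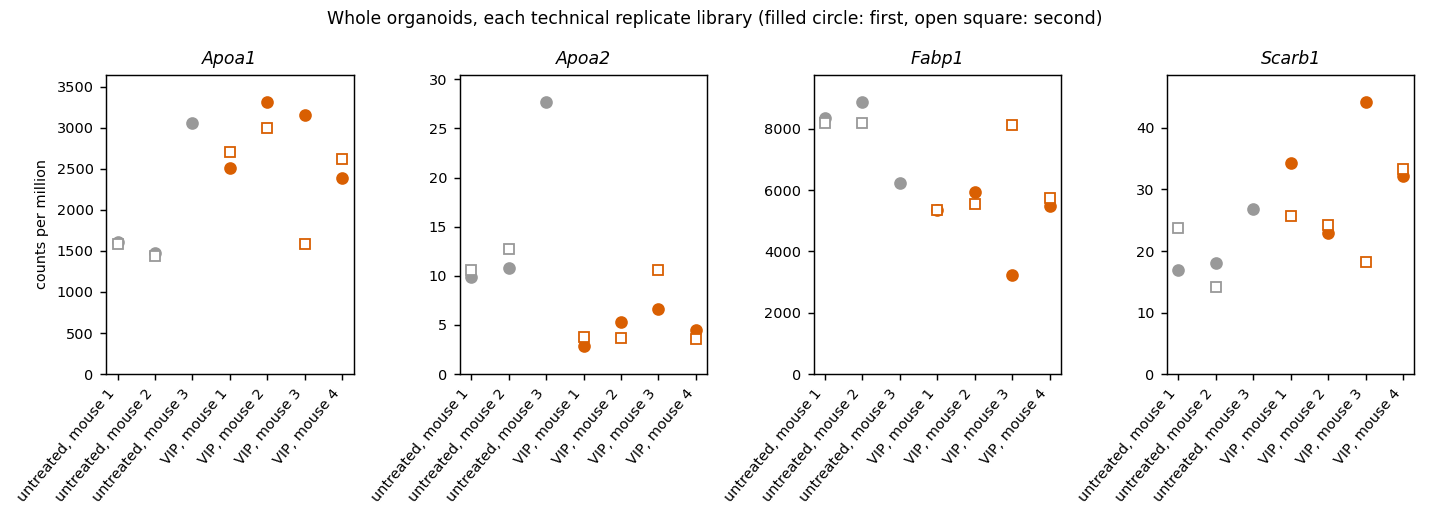
Level of Apoa1, Apoa2, Fabp1 and Scarb1 in CPM in each technical replicate library of whole organoids, untreated in grey and VIP-treated in orange, the first library as a filled circle and the second as an open square. The libraries of VIP-treated mouse 3 differ from each other (Fabp1 at 3231 and 8122).

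Scarb1, the receptor SR-BI that takes up cholesterol and carotenoids at the brush border, was higher after irradiation of untreated cells. It was measured at 19.4, 30.1, 30.3 and 35.3 CPM in untreated cells without irradiation and at 36.8, 43.0, 41.3 and 51.4 CPM after 6 Gy. The groups did not overlap, and irradiation raised Scarb1 by 0.63 on the log2 scale (SE 0.16, edgeR adjusted p = 0.021), or 1.55-fold, in 4 of 4 mice. The estimate stayed between 0.57 and 0.67, but the adjusted p was 0.062 to 0.076 with any 1 mouse left out and 0.10 without the mouse block. In VIP-treated cells the irradiation difference was 0.19 (SE 0.15, adjusted p = 0.52), from 25.3, 42.1, 48.1 and 31.7 CPM to 33.9, 33.5, 51.0 and 45.9 CPM, and the interaction of -0.44 (SE 0.22) did not pass (adjusted p = 0.82).

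In sorted cells without irradiation, Scarb1 was higher with VIP in most mice, past the threshold in no fit run. In the 72 h experiment its levels were 14.4, 17.2, 22.9 and 13.3 CPM untreated and 31.1, 24.7, 30.8 and 19.96 CPM with VIP, higher in 4 of 4 mice, with a log2 fold change of 0.66 (SE 0.31, edgeR adjusted p = 0.88). Without irradiation in the later experiment it was higher in 3 of 4 mice, at 0.36 (SE 0.16, adjusted p = 0.37), and after irradiation the difference was -0.07 (SE 0.15, adjusted p = 0.98). As a description, whole organoids held 20.1, 16.0 and 26.2 CPM untreated and 29.7, 23.8, 33.2 and 32.9 CPM with VIP. Scarb1 was higher there in 3 of 3 mice at 0.48 (SE 0.13), 0.61 without the second library of VIP-treated mouse 3 and 0.24 without the first.

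For the interaction of VIP and irradiation, 0 of 8 genes passed in edgeR's test and 0% of 9976 genes did. DESeq2 called 0 genes too, and 634 genes, none of them among the 8, had an unadjusted edgeR p under 0.05. The intervals were wide, with 95% limits of -1.63 to 0.38 for Apoa1 and -0.90 to 0.02 for Scarb1.

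No gene of the 6 lists of the wider lipid absorption pathway passed the threshold with VIP in sorted cells, where few genes of any kind did. Over all genes tested, 0.0885% passed after 72 h, 0.742% without irradiation and 0.221% in irradiated cells. Nothing about the pathway is therefore read from this count. In all 3 VIP comparisons of sorted cells, none of the tested genes passed in lists of other apolipoproteins, of fatty acid and sterol uptake, of triglyceride resynthesis, of chylomicron export, of enterocyte transcription factors or of PPAR alpha targets. Some estimates were nevertheless large, such as those of the uptake gene Ces1f at -1.54 (SE 0.42, edgeR adjusted p = 0.081) and of Creb3l3, a membrane-bound activator of apolipoprotein genes in liver and gut, at -1.31 (SE 0.48, adjusted p = 0.23) without irradiation. Irradiation of untreated cells, with 4.46% of all genes past the threshold, moved 3 of 16 tested uptake genes. Acsl5, which activates fatty acids for triglyceride synthesis, rose by 0.54 (SE 0.09, edgeR adjusted p = 0.00059) and Clps, the colipase, by 0.74 (SE 0.16, adjusted p = 0.0042), while Slc27a2, a fatty acid transporter and acyl-CoA synthetase, fell by 0.76 on the log2 scale (SE 0.12, adjusted p = 0.00029). Slc27a2 was lower and Clps higher with irradiation of VIP-treated cells as well (-0.78 and 1.03, adjusted p = 0.00011 and 0.00018).

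None of 19 tested triglyceride resynthesis genes passed with irradiation of untreated cells, and of 17 chylomicron export genes Prap1, a protein of the secretory path that binds MTTP, was lower (-0.37, SE 0.10, edgeR adjusted p = 0.035). Among 23 tested enterocyte transcription factors, Creb3l3 was higher (1.19, SE 0.35, adjusted p = 0.049). Klf5, Cdx1, Hnf4g and Ppara were lower, by -0.42, -0.42, -0.51 and -1.32 (adjusted p = 0.0025, 0.0026, 0.017 and 0.046). Of 17 tested PPAR alpha targets, Acaa2 and Ech1 were lower (-0.30 and -0.25, adjusted p = 0.012 and 0.043) and none was higher.

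In VIP-treated cells, irradiation was accompanied by a higher level of Apobec1, the enzyme that edits Apob mRNA and a gene of the list of other apolipoproteins and lipoprotein remodelling (1.09, SE 0.31, edgeR adjusted p = 0.031). Of 19 tested triglyceride genes, Bscl2 was higher and Lpcat3 lower. Of 17 export genes Surf4, a cargo receptor for lipoproteins, was lower (-0.28, edgeR adjusted p = 0.0495). Among 23 enterocyte transcription factors 1 was higher and 3 were lower, and 0 of 17 PPAR alpha targets passed. Over all genes 7.78% passed in that comparison, and nothing about the lists is read from these counts. In whole organoids the list genes are given as plain counts and not as a test. There 3 of 23 triglyceride genes lay past the threshold used elsewhere, all higher (Pnliprp2, Agpat2 and Cidec). Of 20 uptake genes 1 lay past it higher and 2 lower, and of 19 export genes Prap1 did, higher. Of 25 transcription factors Klf4 and Maf lay past it higher and Nr1h3 lower. Of 21 PPAR alpha targets Vnn1 and Angptl4 did so higher and Acot1 lower. None of the 7 other apolipoprotein and remodelling genes did, where 4.82% of all genes did. Nothing is read from these counts, which were not repeated without either library of VIP-treated mouse 3.

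Markers of cell types moved in the same comparisons as these genes. With irradiation of untreated cells, where 4.46% of all genes passed, 4 of 13 tested enterocyte markers were higher and none was lower. They were Rbp2, Anpep, Krt20 and Slc5a1, the first by 1.31 (SE 0.23, edgeR adjusted p = 0.00088). Higher too were 8 of 8 Paneth, 6 of 9 goblet and 5 of 10 enteroendocrine markers. So was Vim, the 1 tested gene of the stromal or immune list. Of 9 stem cell markers 2 were lower, among them Olfm4 by -0.64 (SE 0.07). With VIP in irradiated cells, Rbp2, the retinol binding protein of absorptive cells, was lower (-1.60, SE 0.24, adjusted p = 0.0018), 1 of 13 enterocyte markers, and Olfm4 was higher (0.35, SE 0.07, adjusted p = 0.018). Without irradiation, where 0.742% of all genes passed, VIP moved none of the 13 enterocyte markers past the threshold. Rbp2 was at -1.07 (SE 0.30, edgeR adjusted p = 0.093), and Olfm4 was higher (0.57, SE 0.07, adjusted p = 4.8e-05). The summed Paneth markers were 10107 to 14709 CPM in untreated and 8384 to 9693 CPM in VIP-treated cells without irradiation, and the summed goblet markers 5752 to 8879 CPM and 5073 to 5704 CPM, with no overlap in either, although none of their genes passed. After irradiation the Paneth sums were 14439 to 27674 CPM and 14616 to 16438 CPM, and the goblet sums 7496 to 10874 CPM and 6864 to 8933 CPM. With VIP in these irradiated cells, 1 of 9 goblet markers passed, lower, and 0 of 8 Paneth markers did, where 0.221% of all genes passed. The summed stem cell markers were 3553 to 4644 CPM in untreated and 5378 to 5966 CPM in VIP-treated cells without irradiation, and 2616 to 2953 CPM and 3202 to 3768 CPM after it. With irradiation of VIP-treated cells, where Apoc3 was higher, 7.78% of all genes passed. There 2 of 13 enterocyte, 10 of 10 enteroendocrine, 8 of 8 Paneth and 4 of 9 goblet markers were higher. So were 1 of 5 tuft markers and the 1 tested gene of the stromal or immune list, while 3 of 9 stem cell markers were lower. In whole organoids, as a plain count, 4 of 16 enterocyte markers lay past the threshold higher and 2 lower, where 4.82% of all genes did. Alpi was among those higher, at 1.35 (SE 0.22), with 400 CPM in library 1 and 134 CPM in library 2 of VIP-treated mouse 3. Also past it, all higher, were 7 of 9 goblet markers and 4 of 8 dissociation and stress genes (Fos, Hspa1a, Hspa1b and Egr1). Nothing is read from these counts. The part of cell composition in the differences of Fabp1, Fabp2, Apoa1, Apoc3 and Scarb1 was not tested.

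Several of the genes most like the set are those of absorptive cells. Over 30 samples of mice with at least 2 samples, with each mouse's mean subtracted, the mean of the 9 genes was compared with 7192 other genes of at least 10 CPM on average in each table. The highest Pearson correlations were those of Rbp2 (0.94), Sis, the sucrase-isomaltase (0.92), Spink1 (0.91), Anpep, an aminopeptidase (0.90), Cyp3a11 (0.88), Guca2b (0.86), Chd3 (0.83) and Krt20 (0.82). Samples share mice and treatments, and the likeness differed between experiments, as for Sis with -0.64 over the 6 whole organoid samples. Among the 9 genes themselves the correlation with their mean was 0.93 for Apoa1, 0.92 for Apoa4 and Mttp, 0.83 for Fabp1, 0.78 for Apob, 0.71 for Apoc3, 0.41 for Fabp2, 0.39 for Scarb1 and -0.06 for Apoa2. Each gene is part of that mean, so these values are partly fixed in advance. Over the whole organoid samples alone they ran from -0.38 for Apoc3 to 0.90 for Mttp.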

How the data were processed

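Bulk 3′ RNA-seq was analysed for whole organoids (13 libraries of 7 cultures) and sorted Lgr5-EGFP+ cells (8 and 16 libraries). The authors reverse transcribed poly(A) RNA with primers holding sample barcodes and UMIs and processed reads with the Drop-seq pipeline 1.0 on GRCm38 with GENCODE M25. Each deposited table gives counts of UMIs for every gene in every library with no normalization, and 0 columns lacked a sample. Gene positions were read from GENCODE M21 for that build.

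Where a culture had a pair of technical libraries, their counts were added. Counts were tested in R 4.3.3 with edgeR 4.0.16 (TMM, filterByExpr by group, quasi-likelihood test, mouse as a block, Benjamini-Hochberg over all genes tested, threshold 0.05). Samples were paired by the mouse in the labels, that is, the same animal. As a check, deviations from the group mean were correlated between samples. For the same mouse the values were 0.27 to 0.63 in whole organoids, 0.03 to 0.21 in sorted cells after 72 h and -0.07 to 0.16 in the irradiation experiment. For different mice they were -0.54 to 0.33, -0.14 to 0.15 and -0.20 to 0.20. In the irradiation experiment the range of the same mouse thus lay within that of different mice (medians 0.05 and -0.01), so the check does not settle the pairing there. The standard error is the log2 fold change divided by the root of the F statistic, and log2 CPM used a prior count of 2. The script was tested on simulated data with known changes. UMI counts limit precision to counting error, which is largest for Apoa2 and Apoc3.

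The 9 genes and the pathway and marker lists were chosen with earlier results of these data known. All 9 genes are named, list genes that passed are named by smallest p, at most 3 a list and comparison, and those named outside this rule (Clca1, Alb, Rbp2, Olfm4 and others among the markers, Ces1f, Ppara and Creb3l3) were chosen after their values were seen. Alternatives were RLE factors, library size alone, 2 filters on low counts, DESeq2 1.42.0, no mouse block, each mouse left out, 1 technical library only, and irradiated or untreated samples only. Some results of the list of other apolipoproteins are not reported here. The paper's flow cytometry and quantitative PCR were not analysed here.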

Additional observations from a re-analysis of the deposited data

Results flagged for a closer look

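In groups of 4 samples, a sample far from the other 3 was sought for each gene and group, with the gap to the nearest other sample as a share of the whole range. Of 63 such pairs, 6 were above the critical value, where chance gives about 1 in 20. Apoa1 in the irradiated untreated cells of mouse 4 had a gap of 0.974 of the range (1078 CPM against 247 to 268 CPM), and Apoa4 in the same sample a gap of 0.871 (259 CPM against 57.6 to 83.5 CPM). Apoa1 in the VIP-treated cells of mouse 4 of the 72 h experiment had a gap of 0.905 (554 CPM against 179.6 to 215 CPM), and Apob in the untreated cells of mouse 2 there a gap of 0.873 (66.4 CPM against 10.6 to 17.7 CPM). In whole organoids, Apoa1 of VIP-treated mouse 2 was high with a gap of 0.849 (3165 CPM against 2479 to 2583 CPM), and Apoc3 of VIP-treated mouse 3 was low with a gap of 0.925 (82.4 CPM against 144 to 149 CPM).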

How the results depend on the processing

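Of 604 log2 fold changes recomputed for the 9 genes, 517 kept their direction and their side of the threshold, 33 gained and 31 lost a call in the same direction, and 23 changed sign. With every gene of any count tested, the number of the 9 genes called was 6 for VIP in whole organoids, 4 for VIP without irradiation, 4 for VIP in irradiated cells, 6 for irradiation of untreated cells, 5 for irradiation of VIP-treated cells and 1 for the interaction. DESeq2 called 1 with irradiation of untreated cells and 0 with irradiation of VIP-treated cells, where the stricter filter and the fit without the mouse block also gave 0. Without the block, the counts were 1 for VIP without irradiation and 0 in whole organoids. Irradiated samples alone gave 4 for VIP. In whole organoids the count was 5 without the second library of VIP-treated mouse 3 and, in an alternative chosen after seeing the data, 0 without the first. With 1 mouse left out, the counts were 2 to 6 in whole organoids, 0 to 1 for VIP over 72 h, 0 to 2 for VIP without irradiation, 1 to 2 for VIP in irradiated cells, 0 to 5 for irradiation of untreated cells and 0 to 0 for irradiation of VIP-treated cells. The causes were not tested. The whole organoid values in this section, including those among the 604, belong to the comparison in view when the set was chosen. They are a description, and nothing is read from them.

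Signs changed without the block for Apob over 72 h (-0.041), in DESeq2 for Apoc3 over 72 h (0.071), with first technical libraries only for Apoc3 (-0.020) and Mttp (-0.078) in whole organoids, and without the second library for Apoc3 (-0.045) and Mttp (-0.0087) there. With 1 mouse left out, log2 fold changes ran for VIP over 72 h from -0.83 to 0.075 (Apoa4), -0.066 to 0.87 (Apob), -0.54 to 0.42 (Apoc3), -0.15 to 0.92 (Fabp1) and -0.073 to 0.40 (Mttp). They ran in whole organoids from -0.14 to 0.41 (Apoa4) and -0.11 to 0.21 (Mttp), for VIP in irradiated cells from -0.90 to 0.16 (Apob), and for irradiation of untreated cells from -0.00014 to 0.10 (Fabp2). For the interaction they ran from -0.70 to 0.23 (Apoa4), -0.46 to 0.30 (Apob), -0.012 to 0.15 (Fabp2) and -0.66 to 0.33 (Mttp).

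Over all genes, calls in whole organoids went from 614 to 979 with any count, 300 in DESeq2, 99 without the block, 0 and 1261 without the first and second library of VIP-treated mouse 3, and 363 to 1668 with 1 mouse left out. For VIP over 72 h they went from 6 to 17 with any count, 11 under the strict filter, 2 in DESeq2, 14 with library size alone, 1 without the block and 3 to 17 with 1 mouse left out. For VIP without irradiation they went from 74 to 182, 34 without the block and 32 to 42, and for VIP in irradiated cells from 22 to 110, 12 in DESeq2, 12 without the block, 52 on irradiated samples alone and 5 to 35. Irradiation of untreated cells went from 445 to 281 in DESeq2 and 176 to 643, irradiation of VIP-treated cells from 776 to 489 and 426 to 691, and the interaction from 0 to 34 with any count and 0 to 1. Depth limits Apoa2 and Apoc3 most in sorted cells.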
